A study of Homo sapiens with 8 samples.

Results

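RNA recovered with miR-2355-5p was compared directly with RNA recovered with miR-1271-5p, using the 5 pulldown libraries that carry those names among the 8 of the series. Cells of 786-0, an established human line from a clear cell renal carcinoma, had been transfected with biotin-tagged synthetic duplexes for 48 h, and the tagged microRNA was retrieved together with the RNA bound to it. The miR-2355 group held 2 libraries and the miR-1271 group 3, although the design text speaks of triplicates, and 3 pulldowns with a control duplex served here to show which side of a difference lay away from background. All 8 libraries came from the same cell line grown in the same medium, and no further treatment is labelled. The labels give no sequence for the control duplex or the passenger strands.

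A microRNA guides an Argonaute protein to messenger RNAs that pair with it, above all through its seed, the bases next to its 5′ end. A bound target is usually held back from translation and degraded, and a tagged duplex is used to enrich targets while they are held. Family members with the same seed can therefore share targets.

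The mature sequences are shown because the comparison turns on their difference (RefSeq, GRCh38.p14; 5′ to 3′; capitals mark the seed, bases 2 to 8).
hsa-miR-2355-5p: aUCCCCAGauacaauggacaa
hsa-miR-1271-5p: cUUGGCACcuagcaagcacuca
hsa-miR-96-5p: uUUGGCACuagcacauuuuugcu
A full seed match in a target reads CUGGGGA for miR-2355-5p and GUGCCAA for miR-1271-5p. Aligned from their 5′ ends, the 2 transfected microRNAs had the same base at 9 of 21 positions and at 3 of the 7 seed positions. Among 2370 mature human microRNA names in the RefSeq table, the seed of miR-2355-5p occurred in no other, and that of miR-1271-5p occurred in 1 other, miR-96-5p. The mature miR-2355-5p lies at chr2:207110043-207110063 on the minus strand, inside the span of KLF7 (chr2:207074137-207173851). The mature miR-1271-5p lies at chr5:176367960-176367981 on the plus strand, inside the span of ARL10 (chr5:176365487-176415063). The gene table used gives spans without exons, so whether these positions are intronic was not read.

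Genes appear below by Ensembl ID, in groups, because the count table does not pair its IDs with symbols and 0 of them matched the gene table used. For the same reason the kidney epithelial label could not be set against marker genes, and no target site was looked for in a recovered RNA. The miR-2355 libraries held 14924700 and 18637410 reads, the miR-1271 libraries 10358878 to 13119672 and the controls 4122875 to 22864693. Levels are given as CPM, reads scaled by library size and TMM, which makes them a share of what each pulldown recovered, so a changed amount of an RNA in the cells and a changed recovery cannot be told apart, nor can fewer cells and less RNA per cell. Of 60666 rows, 17351 passed the filter on low counts and were tested. Across these genes, which are not independent, log2 levels correlated at 0.987 between the miR-2355 libraries, at 0.983 to 0.985 among the miR-1271 libraries and at 0.973 to 0.981 between the groups.

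A small part of the tested genes was called different between the pulldowns, but a gene not called was not shown to be equal. Before adjustment, 22.7% of tested genes had a p under 0.05 in the edgeR quasi-likelihood test. A fit of the microRNA libraries without the controls called 11.4% of the genes it tested. With miR-2355, 608 genes were higher, 3.5% of those tested, and with miR-1271, 459 were higher, 2.65% (edgeR quasi-likelihood test, Benjamini-Hochberg adjusted p under 0.05, 6.15% called in all). The differences were mostly under 2-fold: the median log2 difference, miR-2355 minus miR-1271, was 0.76 among the genes higher with miR-2355 and -0.74 among those higher with miR-1271, against -0.01 over all tested genes. In every called gene the miR-2355 libraries lay entirely above or entirely below the miR-1271 libraries. That alone is no mark of a called gene, since 41.5% of all tested genes showed the same separation of 2 against 3 libraries. The balance of directions changed when libraries were scaled by their totals alone. Under TMM 57.0% of the calls were toward miR-2355, with RLE factors 56.9% and with upper-quartile factors 54.3%. Under library totals alone 82.7% were (1252 against 261), a scaling that raised the median difference of all genes from -0.01 to 0.12.

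Large differences were rare, and the balance of their directions depended on the scaling and on single libraries. At least 1.5-fold higher were 464 called genes with miR-2355 and 349 with miR-1271. At least 2-fold these numbered 163 (0.939% of tested genes) and 138 (0.795%, and 1.73% in both directions together), at least 4-fold 28 and 26, and at least 8-fold 5 and 3. With library totals alone, 281 and 102 genes differed at least 2-fold, and at equal depth 144 and 96. Without miR-2355 replicate 1 the larger count was on the other side, with 157 toward miR-2355 and 178 toward miR-1271. Over all tested genes, called or not, the middle 90% of log2 differences ran from -0.76 to 0.73.

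**Figure D1:**
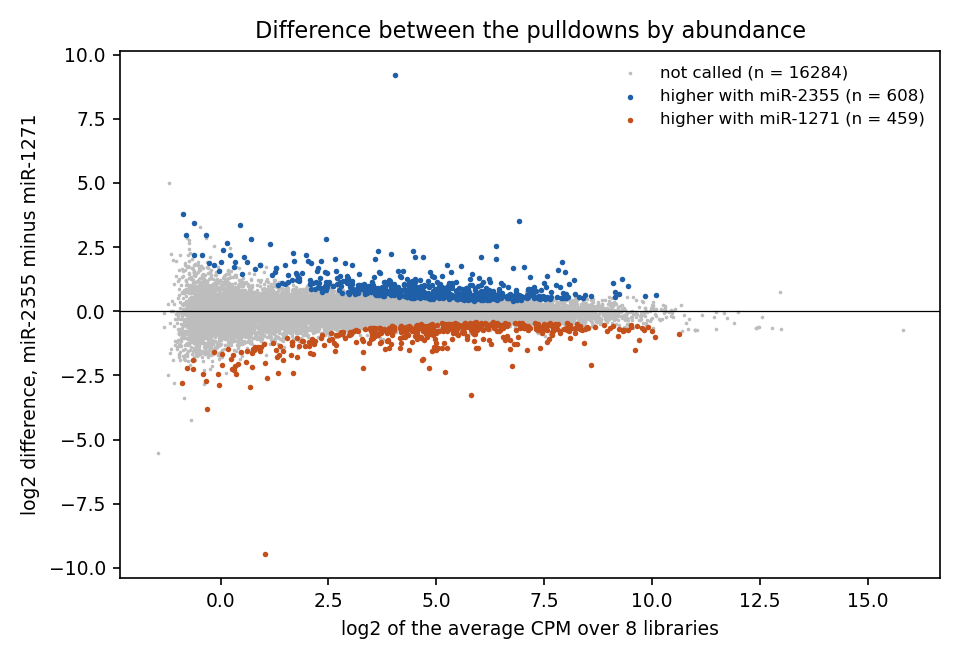
Log2 difference between the pulldowns (miR-2355 minus miR-1271) against the log2 of the average CPM over 8 libraries, 1 point per tested gene, with the 608 genes higher with miR-2355 in blue and the 459 higher with miR-1271 in orange. Called points begin farther from 0 on the left, where genes are rare, and 1 point on each side stands past 9 in size.

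How small a difference could be called depended on abundance, as the plot of differences by abundance shows. In the least abundant quintile of genes the median standard error of the log2 difference was 0.50, the smallest called difference was 1.39, and 21 genes were called higher with miR-2355 and 31 with miR-1271, each of them at least 2-fold. In the middle quintile the median standard error was 0.18 and the smallest called difference 0.50, with 163 genes called toward miR-2355 and 90 toward miR-1271. In the most abundant quintile the median standard error was 0.14 and the smallest called difference 0.42, with 156 and 147 genes. No smaller difference was called in the same quintile.

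The most abundant rows had mostly higher values with miR-1271, and how many were called depended on the tool and the scaling. Of the 10 rows with most reads, 9 had higher values with miR-1271 (8 with library totals alone). With TMM, 0 of the 10 were called by edgeR (adjusted p 0.0861 to 0.955, log2 differences -0.72 to 0.75). With library totals alone edgeR called 1 of them, toward miR-2355. Unadjusted, 8 had a p under 0.05, and DESeq2 called 8, of which 7 were toward miR-1271. The row with the most reads of all took 5.07% and 4.52% of the miR-2355 libraries and 7.39%, 8.30% and 5.97% of the miR-1271 libraries. Every miR-1271 library was thus above both miR-2355 libraries, but the log2 difference of -0.72 ± 0.25 (SE) did not pass (edgeR adjusted p = 0.101). Of the 100 rows with most reads, 71 had higher values with miR-1271 (58 with library totals alone), and edgeR called 8 of these and 2 of the others. That is 10% of the 100 rows, against 6.15% of all tested genes. DESeq2 called 30 of the 100, 26 toward miR-1271 and 4 toward miR-2355, against 3.38% of all 37898 rows it was given. The median log2 difference of the 100 rows was -0.18, against -0.01 over all tested genes.

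The row with the largest difference in favour of miR-2355 was ENSG00000253008. Its reads were 1527 and 607 in the miR-2355 libraries, or 81.6 and 38.9 CPM. In the miR-1271 libraries it had 0, 3 and 0 reads, and in the controls 1, 0 and 1. It was thus near 0 wherever miR-2355 was not transfected. Summed over libraries, its share of reads was 729.9 times as high with miR-2355 as with miR-1271 (exact 95% interval 249 to 3542, counting error only), and the fitted log2 difference was 9.22. The interval holds neither the spread between libraries nor the picking of this row for its size, so it is no test. The ratio rests on the 3 reads of miR-1271 replicate 2. Without that library the fitted value was 12.85, which has no read to stand against and is no bound, and without each other library in turn it ran from 8.56 to 9.65. The row passed the filter on low counts through the miR-2355 libraries alone, so its values are a description and no p is given.

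Second was ENSG00000165832, a row with ample reads in every library. It stood at 242 and 485 CPM in the miR-2355 libraries and at 36.3, 24.1 and 34.3 CPM in the miR-1271 libraries. The controls stood at 38.9, 46.3 and 49.5 CPM, a little above the miR-1271 libraries and far below the miR-2355 libraries, with no overlap between groups. The miR-2355 mean was 363 ± 172 CPM (SD, n = 2) and the miR-1271 mean 31.6 ± 6.6 CPM (SD, n = 3). The fitted log2 difference was 3.52 with a standard error of 0.24 (edgeR adjusted p = 2.17e-07). Against the control it was higher with miR-2355 by 3.02 ± 0.23 (adjusted p = 1.19e-07), while with miR-1271 it stood at -0.50 ± 0.22, which did not pass (adjusted p = 0.0738). The miR-2355 libraries differed from each other by more than the whole control range, yet both were above every other library.

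In the opposite direction, ENSG00000221464 led. The miR-1271 libraries held 38, 93 and 63 of its reads, or 3.93, 9.21 and 4.99 CPM, and each of the other 5 libraries held 0. Per library total, the miR-1271 pulldown was at least 63.0-fold higher than the miR-2355 pulldown, taking 3 reads over the whole miR-2355 group as the floor. This row too passed the filter through its high group alone, and no p is given. Neither this row nor ENSG00000253008 could be named. Where their reads come from, whether from a transfected duplex or from another RNA, was not tested.

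Next was ENSG00000138764, which was read well in all libraries. It stood at 104, 131 and 148 CPM in the miR-1271 libraries, at 12.7 and 14.2 CPM in the miR-2355 libraries and at 17.2, 9.81 and 12.2 CPM in the controls. The miR-2355 values thus lay inside the control range, and the miR-1271 values lay far above both. The mean was 128 ± 22.1 CPM (SD, n = 3) against 13.4 ± 1.1 (SD, n = 2), which gave -3.25 ± 0.21 (SE) for miR-2355 minus miR-1271 on the log2 scale (edgeR adjusted p = 1.53e-07). Against the control it was higher with miR-1271 by 3.22 ± 0.18 (adjusted p = 5.53e-09) and stood at -0.03 ± 0.20 with miR-2355 (adjusted p = 0.932).

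**Figure D2:**
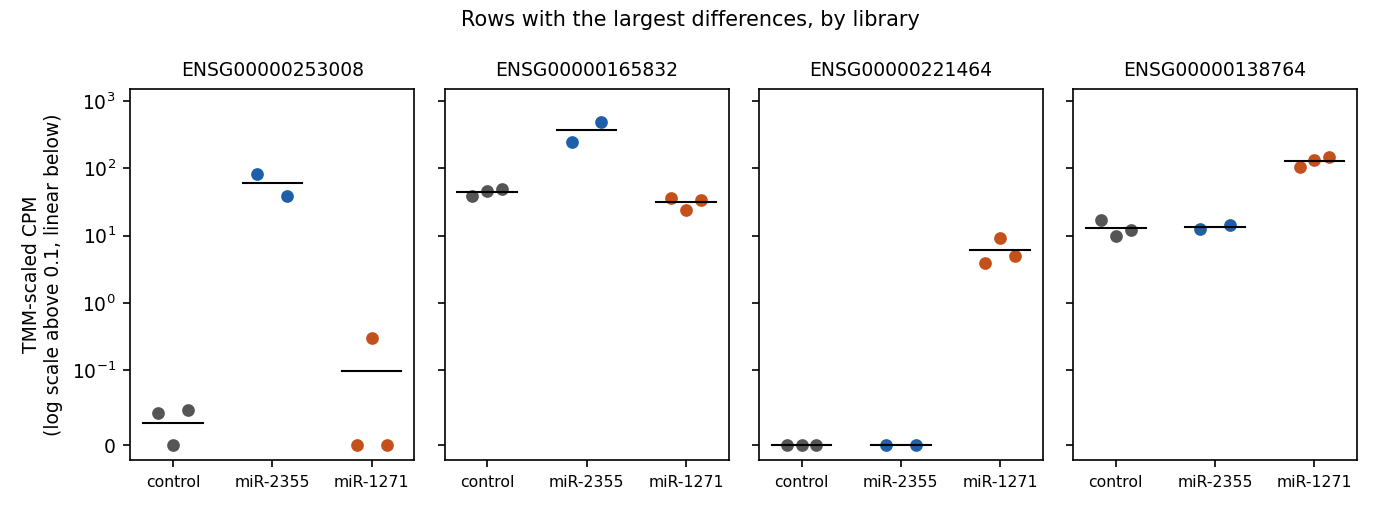
TMM-scaled CPM of 4 rows in each library (points) with the group mean (line), on an axis that is logarithmic above 0.1 and linear below. The 2 rows on the left are high in both miR-2355 libraries and the 2 on the right in all 3 miR-1271 libraries, with the controls at or near the level of the other pulldown.

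The 4 IDs were taken by a rule of size: an adjusted p under 0.05, a log2 average CPM of at least 1, no overlap between the pulldowns and the largest difference. That rule was met by 585 genes higher with miR-2355 and by 426 higher with miR-1271. The p-values printed for ENSG00000165832 and ENSG00000138764 come from the libraries that picked these rows. Those against the control are thus no separate support. Past the second gene the sizes fell off gradually, from 2.81 at the third to 2.04 at the fifteenth with miR-2355, and from -2.60 to -1.80 with miR-1271. Of the first 15 genes with miR-2355, 13 were also called above the control with miR-2355, and 5 were called below the control with miR-1271. Of the first 15 with miR-1271, 12 were called above the control with miR-1271 and 3 below it with miR-2355. Over all tested genes 12.3% were called above the control with miR-2355 and 17.6% with miR-1271, but the first 15 were picked for high values in the same libraries, so nothing is read from these counts.

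Over all called genes the calls against the control fell into several classes. The 3 controls enter both control comparisons, so the calls against control are given side by side as a description and were not tested. Against the control, 12.3% of tested genes were called higher and 17.5% lower with miR-2355, and 17.6% higher and 22.5% lower with miR-1271. Of the 608 genes higher with miR-2355 than with miR-1271, 195 were above the control with miR-2355 and not called with miR-1271. Another 246 were not called with miR-2355 and below the control with miR-1271. A further 57 were below the control in both and farther below with miR-1271, 30 were above it in both and farther above with miR-2355, 27 were above it with miR-2355 and below it with miR-1271, and 53 were called against the control in neither.

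By their calls against the control, the genes higher with miR-1271 fell mainly into 1 class. Of these 459 genes, 239 were above the control with miR-1271 and not called with miR-2355, and 71 were not called with miR-1271 and below the control with miR-2355. In the rest, 56 were above the control in both, 36 below it in both, 6 above it with miR-1271 and below it with miR-2355, and 51 called in neither. The class of 239 was larger than the class of 71 under each alternative that could give both. The comparison with the control rests on 2 libraries for miR-2355 and on 3 for miR-1271, and the part of this in the counts was not tested.

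Some genes moved from the control in both pulldowns but to a different degree. The 57 genes below the control in both that were higher with miR-2355 had a median log2 difference from the control of -0.71 with miR-2355 and -1.39 with miR-1271. The 56 genes above it in both that were higher with miR-1271 had a median of 0.56 with miR-2355 and 1.29 with miR-1271. Between the pulldowns the median log2 difference was 0.64 in the 57 genes and -0.69 in the 56, against 0.77 in the class of 246 and -0.83 in the class of 239. The 27 genes on opposite sides of the control stood at medians of 0.71 in the miR-2355 pulldown and -0.52 in the other, a median difference of 1.39 between them.

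**Figure D3:**
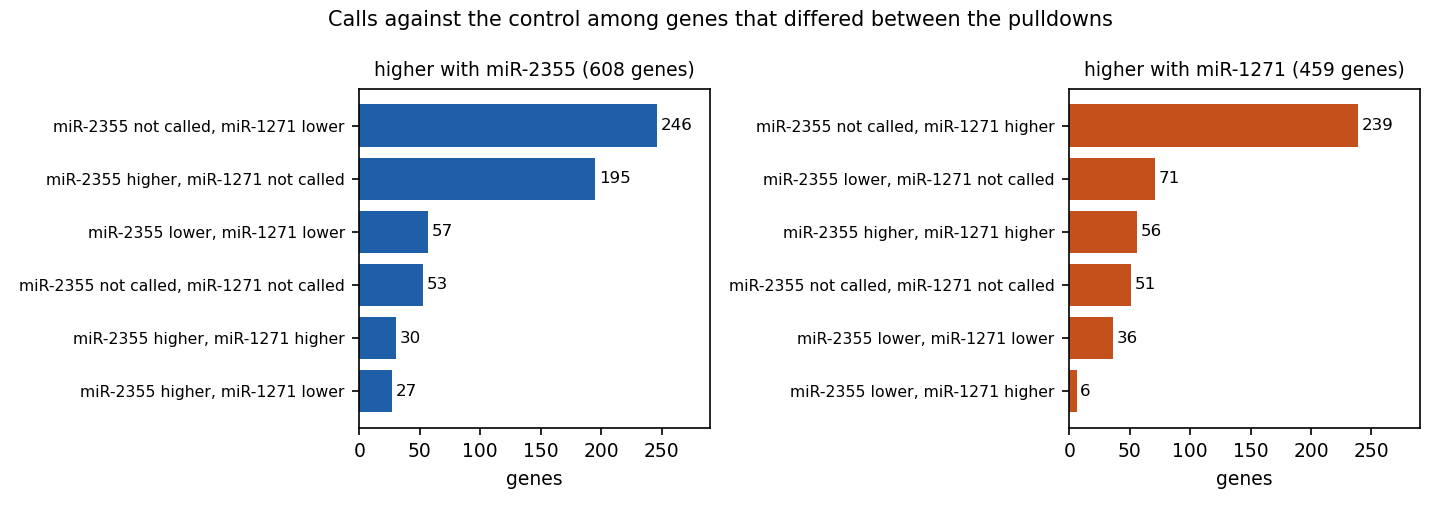
Number of genes (horizontal axis) by their calls against the control in each pulldown, for the 608 genes higher with miR-2355 (left) and the 459 higher with miR-1271 (right). On the left the classes of 246 and 195 genes are the largest, and on the right the class of 239.

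The levels of these classes show how far the other pulldown lay from the control, as a description of genes chosen on the same libraries. The 195 genes above the control with miR-2355 had a median log2 difference from the control of 0.78 with miR-2355 and 0.00 with miR-1271. They took 1.98% and 2.20% of the reads in the miR-2355 libraries, 1.07% to 1.12% in the miR-1271 libraries and 1.12% to 1.23% in the controls. The 239 genes above the control with miR-1271 had a median of 0.83 in that pulldown and of -0.04 in the other. They took 2.83% to 3.25% of the reads in the miR-1271 libraries, 1.83% and 1.90% in the miR-2355 libraries and 1.71% to 2.18% in the controls. In both classes the pulldown on the high side stood above every other library. These shares are of all reads, without TMM scaling. By them the miR-2355 libraries lay inside the control range in the class of 239. In the class of 195 the miR-1271 libraries lay by unscaled share just below every control. The miR-1271 TMM factors (0.924 to 0.964) were below those of the controls (1.032 to 1.065). Scaling by them would raise the miR-1271 levels against the controls, so no order of scaled levels is read from this.

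The classes below the control were chosen on the same libraries too. The 246 genes below the control with miR-1271 had a median of -0.76 in that pulldown and of 0.04 in the other. They took 0.731% to 0.803% of the reads in the miR-1271 libraries, 1.29% and 1.43% in the miR-2355 libraries and 1.20% to 1.496% in the controls. The 71 genes below the control with miR-2355 had a median of -0.78 in that pulldown and of 0.00 in the other. They took 0.236% and 0.276% of the reads in the miR-2355 libraries, 0.342% to 0.377% in the miR-1271 libraries and 0.399% to 0.425% in the controls. By unscaled share, the miR-2355 libraries lay inside the control range for the 246 genes. For the 71 genes all 3 miR-1271 libraries lay by unscaled share below every control, between the controls and the miR-2355 libraries. The miR-1271 TMM factors were below those of the controls, so scaling would raise the miR-1271 levels against the controls. No order of scaled levels is read for the 71 genes, whose fitted median with miR-1271 was 0.00.

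Genes that differed at least 2-fold were divided by side as well, and whether their shares differ from those of all called genes was not tested. Of the 138 such genes higher with miR-1271, 88 (63.8%, against 52.1% of all genes higher with miR-1271) were above the control with miR-1271 and not called with miR-2355, with a median log2 difference from the control of 1.28, and 17 were below the control with miR-2355 and not called with miR-1271. Of the 163 higher with miR-2355, 58 were above the control with miR-2355 and not called with miR-1271, with a median of 1.35, and 61 were below the control with miR-1271 and not called with miR-2355. Genes on opposite sides of the control numbered 21 among those higher with miR-2355 (12.9%, against 4.44% of the 608) and 4 among those higher with miR-1271.

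**Figure D4:**
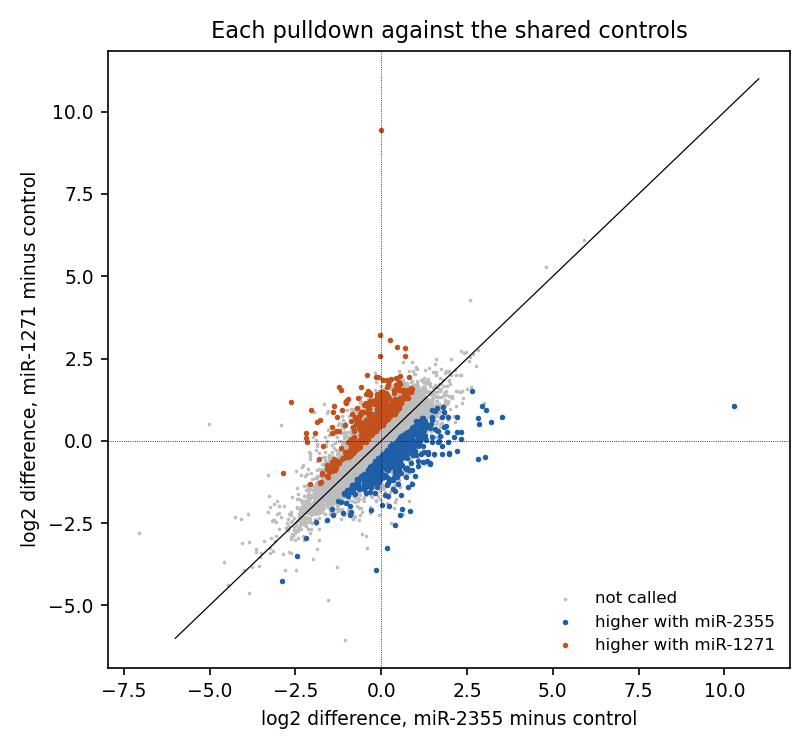
Log2 difference from the control with miR-2355 (horizontal axis) and with miR-1271 (vertical axis), 1 point per tested gene, coloured by the call between the pulldowns, with a line where both are equal. Called genes flank the line on both sides, and 1 point on each axis stands past 9, with the other pulldown near the control. Both axes use the same 3 controls.

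Rows close to absent in 1 pulldown were few. At the deposited depth, 23 rows reached 10 reads in both miR-2355 libraries with no more than 3 in any miR-1271 library, and 2 rows the reverse. After thinning the 5 libraries to the total of the shallowest, 3 rows and 4 rows met this, so the excess on the miR-2355 side was not seen at equal depth. Of the 23 rows at the deposited depth, 19 passed the filter and 6 were called higher with miR-2355. The 2 reverse rows were tested and called, though all these rows were picked on the same reads. With no read at all allowed on the other side, 0 rows for miR-2355 and 1 for miR-1271 had at least 10 reads in each library, before and after thinning.

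Counts of called genes varied strongly with single libraries, as the plot of calls on leaving out 1 library shows. Dropping miR-2355 replicate 2 left 154 calls toward miR-2355 and 70 toward miR-1271, and dropping its replicate 1 left 305 and 253. The miR-1271 replicates 1, 2 and 3, each dropped in turn, left 395 and 263, 286 and 191, and 234 and 138. Dropping control replicate 1 gave 915 and 785, and dropping control replicate 2, the shallowest library, gave 854 and 697. Leaving out a pulldown library also leaves fewer samples. Of the differences of at least 2-fold, 90 toward miR-2355 and 50 toward miR-1271 were left on dropping miR-2355 replicate 2, 133 and 75 on dropping miR-1271 replicate 2, and 110 and 65 on dropping its replicate 3.

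**Figure D5:**
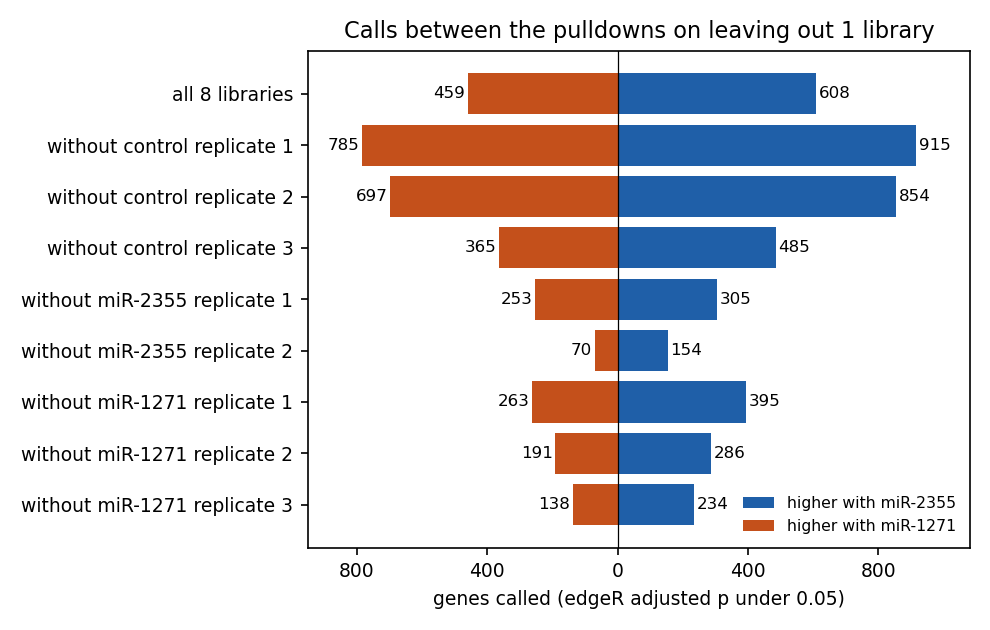
Number of genes called toward miR-2355 (blue, to the right) and toward miR-1271 (orange, to the left) with all 8 libraries and without each library in turn. The counts run from 154 and 70 without miR-2355 replicate 2 to 915 and 785 without control replicate 1.

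A minority of the called genes kept the call whichever library was left out. Of the 608 genes higher with miR-2355, 113 kept the call in all 8 fits without 1 library, and of the 459 higher with miR-1271, 39 did. Since no called gene overlapped between the pulldowns, its direction in these fits is no sign of stability. Among differences of at least 2-fold the call was kept by 81 of 163 genes higher with miR-2355 and by 29 of 138 higher with miR-1271. By side, it was kept by 43 of the 195 genes above the control with miR-2355, 34 of the 246 below it with miR-1271, 25 of the 239 above it with miR-1271 and 0 of the 71 below it with miR-2355.

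The side classes moved with the same libraries. Given as above the control with miR-2355, below it with miR-1271, above it with miR-1271 and below it with miR-2355, they fell to 62, 62, 40 and 10 on dropping miR-2355 replicate 2, and became 86, 142, 222 and 12 on dropping its replicate 1. They became 118, 110, 110 and 31 on dropping miR-1271 replicate 2, and 100, 78, 84 and 12 on dropping its replicate 3. On dropping miR-1271 replicate 1 the smallest class held 34. The class of 239 reached 423 without control replicate 1, and the class of 71 reached 137 without control replicate 2. Which of the first and second class was larger therefore depended on single libraries.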

How the data were processed

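The authors deposited raw read counts per Ensembl gene ID, 1 column per library, without normalization. BWA, featureCounts and the builds hg38 and GRCh38 are listed in the submitters' processing notes without versions, with annotation release and strand setting not given in the sources used here. Without a known strand setting, reads of overlapping antisense genes cannot be told apart, and near-identical gene copies can share reads.

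The counts of all 8 libraries were fitted with edgeR 4.0.16 in R 4.3.3 (filterByExpr, TMM scaling, quasi-likelihood model with 1 mean per group), and the contrast of the pulldowns was tested with adjustment over all 17351 genes. The controls do not enter that contrast, but they share in the filter, the scaling and the estimate of spread. Standard errors are the log2 difference divided by the square root of F. Alternatives changed scaling, filter, tool (DESeq2 1.42.0), depth, block and libraries. The procedure was tested on simulated data. No label says that replicates were separate cultures. The p-values therefore reflect library-to-library spread, which may be technical. The comparison, rule and lists were chosen with earlier results of these data known. The rule for named genes took the 15 largest differences in each direction, and the first 2 IDs of each where IDs have no symbols. The gene lists by symbol, the cell type markers and the seed matches in transcripts were not run for that reason.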

Additional observations from a re-analysis of the deposited data

How the results depend on the processing

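ENSG00000165832 and ENSG00000138764 kept their direction in all 17 alternatives, with log2 differences of 2.94 to 3.95 and of -3.44 to -3.13. Both were picked from the same libraries for the largest differences, so this is no separate support. The counts of called genes varied, and in each case the cause was not tested. Genes higher with miR-2355 and with miR-1271 numbered 608 and 459, but 1252 and 261 with library totals alone, 399 and 294 at equal depth (fewer genes and reads tested), and 970 and 902 in a fit of the 5 microRNA libraries, while 930 were higher with miR-2355 without the filter. The replicate block gave 320 and 217. The numbers do not pair the libraries by any label, and deviations of same-numbered libraries correlated at -0.01 and -0.10. Those of unlike number correlated at -0.10 to 0.10. With 2 miR-2355 libraries the deviations from their mean mirror each other, so these values cannot decide whether libraries were paired. At least 2-fold, 281 were higher with miR-2355 with library totals. The classes above the control with miR-2355, below it with miR-1271, above it with miR-1271 and below it with miR-2355 (195, 246, 239 and 71 genes) numbered 317, 543, 144 and 38 with library totals and 111, 127, 143 and 21 with the replicate block, and those below the control 149 and 33 at equal depth. RLE factors, upper-quartile factors, a stricter filter and DESeq2 kept these counts within 1.5 times. Among the 10 and the 100 rows with most reads, however, DESeq2 called 8 and 30, against 0 and 10 by edgeR with TMM. The shares called over all rows given to each were 3.38% with DESeq2 and 6.15% with edgeR.

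Without 1 library, genes higher with miR-2355 ran from 154 to 915 (90 to 188 at least 2-fold) and those higher with miR-1271 from 70 to 785 (50 to 178). The 4 classes ran from 62 to 282, 62 to 363, 40 to 423 and 10 to 137. Where 1 miR-2355 library was left, it was assumed to vary like the other groups.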
